A study of Populus tremula x Populus alba with 6 samples.

Results

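The genes described here are 4 meristem regulators of poplar, chosen by identifier: the ARBORKNOX genes ARK1 (Potri.011G011100) and ARK2 (Potri.002G113300), and the 2 WOX4 paralogs, Potri.014G025300 on chromosome 14 and Potri.002G124100 on chromosome 2. The rule for the choice used no measured value, though earlier results of these data were known when it was made. All 4 were among the 32049 genes listed in the deposited files, and all 4 passed the filter on low counts that left 24991 genes for testing. The number in an identifier gives its chromosome, and the gene names come with the choice of the identifiers, since the files hold identifiers only. RNA was taken from the shoot apex of the hybrid Populus tremula x Populus alba, clone 717-1B4, 115 days after planting. The groups were 3 wild-type plants (CTRL) and 3 plants of the same clone in which RNAi was directed at DDM1 (RNAi), a chromatin remodeller needed to keep DNA methylation. All 6 plants had gone through 3 weeks of water deficit and 1 week of re-watering, in compost at 21 °C with 16 h of light, so no well-watered group enters any comparison. How many transformed lines the 3 RNAi plants represent, and the level of DDM1 itself, were not analysed here.

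ARK1 and ARK2 encode class I KNOX homeodomain proteins, which hold meristem cells in an undifferentiated state. ARK1 is the poplar counterpart of Arabidopsis SHOOT MERISTEMLESS, which maintains the shoot apical meristem, and ARK2 that of BREVIPEDICELLUS. In poplar both genes are also active in the vascular cambium, the cell layer that makes wood and bast. WOX4 belongs to the WUSCHEL-related homeobox family and acts in procambium and cambium, where in Arabidopsis it promotes cell division downstream of the CLE peptide TDIF and its receptor PXY. A whole apex holds the dome of the meristem, young leaves and stem with procambium, so that a level in these bulk libraries cannot tell fewer cells of a type from less RNA per cell.

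All 4 genes were expressed in every apex, with between 130 and 1552 sense-strand counts per library. Their fitted levels were lower in RNAi than in wild type for 4 of 4 genes, but none passed the test after adjustment over all genes. The median of the 4 log2 fold changes was -0.35, against 0.00 over all 24991 tested genes. Of all tested genes, 50.2% had a fitted value below 0. The 4 values come from the same plants, so they are not 4 independent observations. The test, edgeR's quasi-likelihood test with a Benjamini-Hochberg adjusted p under 0.05, called 0 of the 4 genes changed, and over the whole table it called 0.004% of the genes. At an unadjusted p under 0.05 it held 1 of the 4, the WOX4 paralog on chromosome 2, against 5.64% of all tested genes in either direction and 2.56% in this direction, lower in RNAi. The likelihood ratio test of edgeR, limma-voom and DESeq2 also called 0 of the 4.

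The libraries held between 12399644 and 17165295 gene counts, and the spread between plants was far above counting error for each of the 4 genes. Levels are given in CPM, which are counts scaled by library size and its TMM factor, and are compared between plants only, because gene lengths were not used here. Within a group, the variance of the counts of each gene was between 13.0 and 56.7 times what counting alone would give (chi-square per degree of freedom). RNAi 2 stood apart from the other libraries over all genes, with a score of 63.7 on the first principal component where the others lay between -34.2 and 8.88. Values without it are therefore given for the fold change of each of the 4 genes and for each ratio. Spreads within groups, most alike genes and neighbours are given with it included, and no correlation is given with it alone left out.

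ARK1, the SHOOT MERISTEMLESS counterpart, had 39.5, 32.5 and 52.3 CPM in CTRL 1, 2 and 3 and 44.1, 33.3 and 24.9 CPM in RNAi 1, 2 and 3. The groups overlapped: the second highest plant of all was RNAi 1, and only RNAi 3 lay below every wild-type plant. The group levels were 41.4 ± 10.1 CPM in CTRL and 34.1 ± 9.62 CPM in RNAi (SD, n = 3 each), a difference of -17.6% that was smaller than the SD of either group. The fitted log2 fold change of ARK1 was -0.28 ± 0.24 (SE, adjusted p = 0.828 in edgeR). Its 95% interval runs from 0.559-fold to 1.21-fold, so that the 6 libraries bound a change in ARK1 only loosely. The value hung on single plants, with -0.08 without CTRL 3, -0.10 without RNAi 3, -0.43 without CTRL 2 and -0.51 without RNAi 1, and it was -0.27 without RNAi 2.

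ARK2, the BREVIPEDICELLUS counterpart, had the most counts of the 4 genes, with 67.3, 64.8 and 95.5 CPM in CTRL 1, 2 and 3 and 71.5, 54.0 and 62.6 CPM in RNAi 1, 2 and 3. CTRL 3 stood highest, RNAi 1 came next above both remaining wild-type plants, and RNAi 2 was lowest. The levels were 75.9 ± 17.01 CPM in CTRL and 62.7 ± 8.74 CPM in RNAi (SD, n = 3 each), a difference of -17.4%. The fitted log2 fold change was -0.28 ± 0.19 (SE, adjusted p = 0.806 in edgeR), with a 95% interval from 0.615-fold to 1.11-fold. Without CTRL 3 the log2 fold change of ARK2 was -0.08, so most of its difference came with that 1 wild-type plant, and without RNAi 2 it was -0.18.

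**Figure D1:**
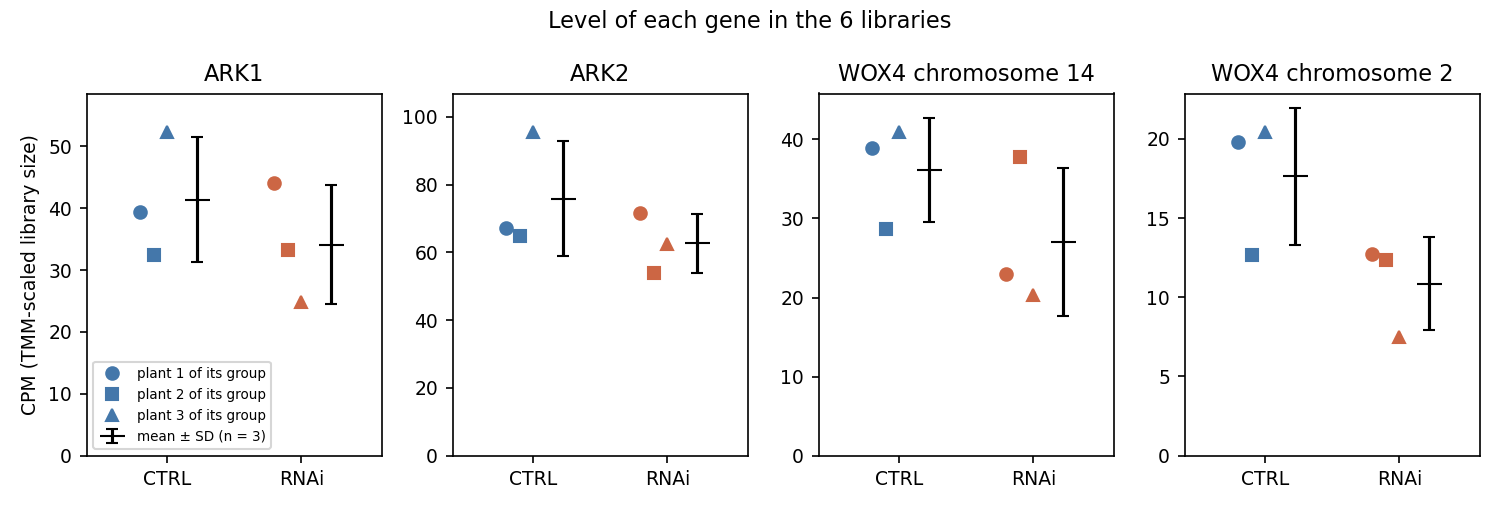
CPM of ARK1, ARK2 and the 2 WOX4 paralogs in each library, with 1 panel per gene and the same marker for the same plant of a group throughout; black bars show the group mean and SD (n = 3). CTRL 3 is the highest library in all 4 panels, RNAi 3 is the lowest in all but ARK2, and the groups overlap in each panel.

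The WOX4 paralog on chromosome 14 had 38.9, 28.7 and 40.9 CPM in CTRL 1, 2 and 3 and 23.0, 37.7 and 20.4 CPM in RNAi 1, 2 and 3. RNAi 1 and RNAi 3 lay below all wild-type plants, while RNAi 2 lay among them, next to CTRL 1. The levels were 36.2 ± 6.57 CPM in CTRL and 27.0 ± 9.37 CPM in RNAi (SD, n = 3 each), a difference of -25.3%. The fitted log2 fold change was -0.42 ± 0.25 (SE, adjusted p = 0.801 in edgeR), with a 95% interval from 0.503-fold to 1.11-fold. Without RNAi 2, the library that stood apart over all genes, it was -0.74. The quasi-likelihood test of edgeR then gave an unadjusted p of 0.00486 and an adjusted p of 0.949. RNAi 2 was also the highest RNAi plant for this gene, so leaving it out enlarges the difference. With all 6 libraries the unadjusted p in edgeR was 0.128. With any other single library left out it lay between 0.0675 (without CTRL 2) and 0.346 (without RNAi 3). Without RNAi 3 the log2 fold change was -0.25.

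The WOX4 paralog on chromosome 2 showed the largest fitted difference of the 4 genes, with 19.8, 12.7 and 20.4 CPM in CTRL 1, 2 and 3 and 12.7, 12.4 and 7.50 CPM in RNAi 1, 2 and 3. CTRL 1 and CTRL 3 lay above every RNAi plant, RNAi 3 was lowest, and CTRL 2 was level with RNAi 1 and RNAi 2. The groups therefore overlapped by a margin of less than 0.1 CPM, between RNAi 1 (12.72) and CTRL 2 (12.65). With library size as the only scaling they did not overlap, as was so for 2760 of the tested genes over the whole table. The TMM-scaled levels of the groups did not overlap in 0 of the 4 genes. Over the whole table they did not overlap in 2956 of the tested genes (11.8%), in 1 direction or the other.

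The level of this paralog was 17.6 ± 4.32 CPM in CTRL and 10.9 ± 2.92 CPM in RNAi (SD, n = 3 each), a difference of -38.4%. The fitted log2 fold change was -0.70 ± 0.26 (SE), or 0.615-fold with a 95% interval from 0.406-fold to 0.931-fold, an interval for this gene taken alone. The quasi-likelihood test of edgeR gave an unadjusted p of 0.0269 and an adjusted p of 0.801, so the difference failed the correction over all genes. Of the 24991 tested genes, 1.86% had a lower fitted log2 fold change. The value lay between -0.49 without RNAi 3 and -0.89 without CTRL 2, with -0.81 without RNAi 2, and the unadjusted p in edgeR was above 0.05 without CTRL 1 (0.0868), CTRL 3 (0.0984) or RNAi 3 (0.0724).

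**Figure D2:**
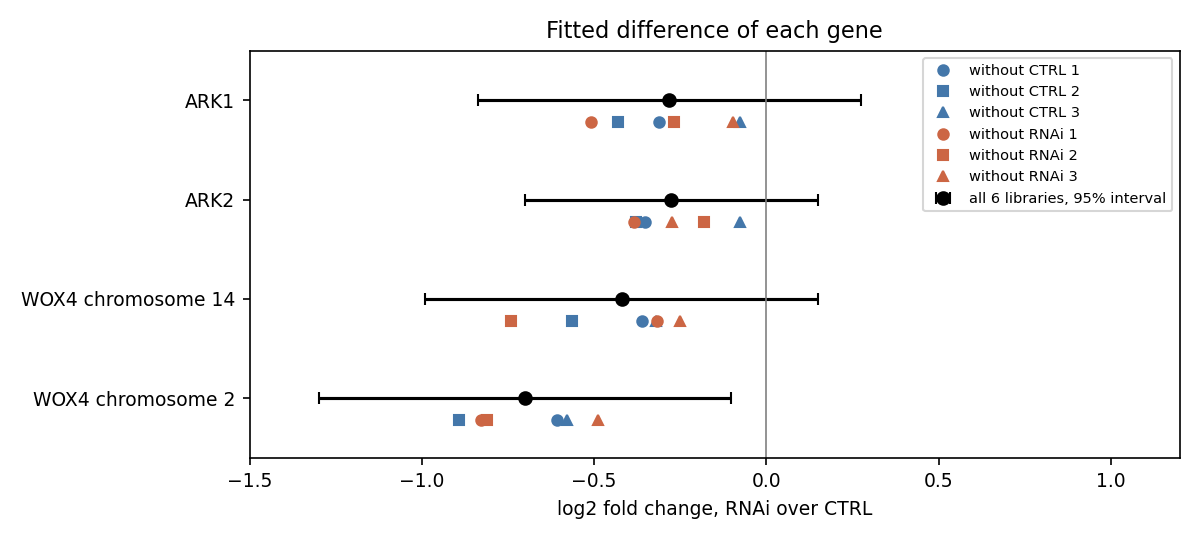
Fitted log2 fold change of each gene, RNAi over CTRL, with its 95% interval from edgeR (black), and the same value with 1 library left out (coloured markers below it). All values lie below 0, and the interval includes 0 for ARK1, ARK2 and the chromosome 14 paralog but ends at -0.10 for the chromosome 2 paralog.

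Ratios of counts within a library do not depend on how libraries are scaled, and gene length drops out of their change between groups. For ARK1 to ARK2 the log2 ratio was -0.77, -0.998 and -0.87 in CTRL 1, 2 and 3 and -0.70, -0.70 and -1.33 in RNAi 1, 2 and 3. RNAi 1 and RNAi 2 held slightly more ARK1 relative to ARK2 than any wild-type plant, and RNAi 3 held less than all others. ARK1 made up 28.5% of the counts of both genes in RNAi 3 (95% Wilson interval 26.3% to 30.8%), below the 33.4% to 37.0% of the CTRL libraries. The group means of the log2 ratio were -0.88 ± 0.11 in CTRL and -0.91 ± 0.36 in RNAi (SD, n = 3 each, exact two-sided permutation p = 1). Their difference of -0.03 was -0.13 without RNAi 2 or without RNAi 1, and turned to 0.18 without RNAi 3 and 0.03 without CTRL 1.

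For the WOX4 paralogs, chromosome 14 to chromosome 2, the log2 ratio was 0.97, 1.18 and 1.00 in CTRL 1, 2 and 3 and 0.85, 1.61 and 1.44 in RNAi 1, 2 and 3. The wild-type plants were close to one another, RNAi 2 and RNAi 3 lay above them and RNAi 1 below. In counts, the chromosome 14 paralog held 66.3%, 69.4% and 66.7% of the WOX4 counts in CTRL and 64.4%, 75.3% and 73.1% in RNAi. The 95% Wilson interval of RNAi 2 (72.2% to 78.2%) lay above those of CTRL 1 and CTRL 3, which end at 69.7% and 69.6%, though such intervals cover counting error only. The log2 ratio averaged 1.05 ± 0.11 in CTRL and 1.30 ± 0.40 in RNAi (SD, n = 3 each, exact permutation p = 0.40), so the larger fitted difference of the chromosome 2 paralog was not shown to exceed that of its partner. The difference of 0.25 between these means was 0.09 without RNAi 2 and 0.47 without RNAi 1.

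The summed WOX4 counts relative to the summed ARK counts gave log2 ratios of -0.86, -1.23 and -1.27 in CTRL 1, 2 and 3 and -1.69, -0.80 and -1.65 in RNAi 1, 2 and 3. RNAi 1 and RNAi 3 held less WOX4 per ARK count than any wild-type plant, and RNAi 2 held the most of all 6. WOX4 counts made up 23.6%, 36.5% and 24.2% of the counts of the 4 genes in RNAi 1, 2 and 3 and between 29.3% and 35.5% in CTRL. The group means were -1.12 ± 0.23 and -1.38 ± 0.50 (SD, n = 3 each, exact permutation p = 0.60). Their difference of -0.26 was -0.55 without RNAi 2, -0.10 without RNAi 1, and -0.13 without CTRL 1 or without RNAi 3. Adjusted over the 3 ratios, the permutation p was 0.90 for this ratio and that of the WOX4 paralogs and 1 for that of the ARK genes, and 3 against 3 libraries cannot give an exact two-sided p below 0.10.

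**Figure D3:**
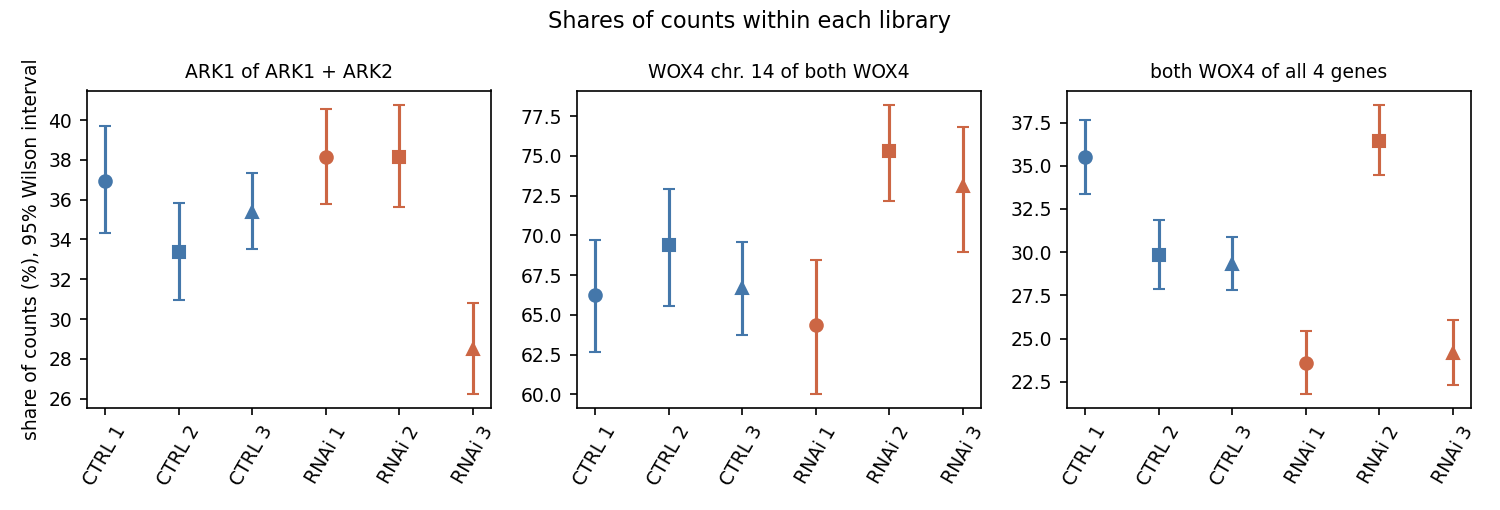
Share of counts, in percent, held by ARK1 among the ARK genes, by the chromosome 14 paralog among the WOX4 genes and by WOX4 among all 4 genes, in each library with its 95% Wilson interval; the vertical axes do not start at 0. RNAi 3 is low for ARK1 (28.5%), RNAi 2 and RNAi 3 are high for the chromosome 14 paralog, and RNAi 2 parts from RNAi 1 and RNAi 3 in the WOX4 share.

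The 4 genes varied more between plants of a group than most tested genes of like counts. The SD of log2 CPM within groups was 0.38 for ARK1, 0.26 for ARK2, 0.39 for the chromosome 14 paralog and 0.40 for the chromosome 2 paralog, against a median of 0.24 over all tested genes. Among the 1000 tested genes nearest in mean log2 CPM, 87.4%, 73.7%, 89.2% and 88.8% had a smaller SD than the respective gene. CTRL 3 was the highest library for all 4 genes and CTRL 2 the lowest wild-type library for all 4.

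Across the 6 libraries each of the 6 pairs of these genes was positively correlated in log2 CPM, and none passed adjustment over the 6 pairs. The WOX4 paralogs had a Pearson r of 0.83 (permutation p = 0.0333, adjusted 0.146) and a Spearman rho of 0.77 (permutation p = 0.103, adjusted 0.154), and r was 0.68 without RNAi 1 and RNAi 3. ARK1 and ARK2 had an r of 0.77 (permutation p = 0.0819, adjusted 0.164) and a rho of 0.83 (permutation p = 0.0583, adjusted 0.117), and r was 0.74 without CTRL 3 and RNAi 3. ARK1 and the chromosome 2 paralog had the highest r, 0.85 (permutation p = 0.0486, adjusted 0.146), with a rho of 0.89 (permutation p = 0.0333, adjusted 0.10). Without CTRL 3 and RNAi 3 their r was 0.32, and on deviations from group means over all 6 libraries it was 0.87. ARK2 and the chromosome 14 paralog had the lowest r, 0.25 (permutation p = 0.681, adjusted 0.681), with a rho of 0.43 (permutation p = 0.419, adjusted 0.419), and r was 0.18 without CTRL 3 and RNAi 2. The other 2 pairs were ARK1 with the chromosome 14 paralog and ARK2 with the chromosome 2 paralog. Their r was 0.55 (permutation p = 0.258, adjusted 0.31) and 0.59 (permutation p = 0.197, adjusted 0.296). Their rho was 0.66 (permutation p = 0.175, adjusted 0.21) and 0.89 (permutation p = 0.0333, adjusted 0.10). For the first of these, r was -0.45 without CTRL 3 and RNAi 3. For the second it was 0.56 without CTRL 3 and RNAi 2. In each of the 6 pairs, the 2 libraries left out were those farthest from the median of the first-named gene only. For the WOX4 paralogs that gene was the chromosome 14 paralog. Leaving out the extremes of a gene narrows its range and can lower r by itself, so these values cannot show where a relation rests.

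Likeness within a paralog pair was high but not singular among all genes. With the chromosome 14 paralog, 1.94% of the tested genes had a higher r than its WOX4 partner, and with the chromosome 2 paralog 3.48% did. For ARK1 and ARK2, 5.30% and 5.29% of the tested genes had a higher r than the ARK partner. The gene most like each member over the 6 libraries was Potri.013G081800 for ARK1 (r = 0.995), Potri.001G197300 for ARK2 (r = 0.991), Potri.010G027500 for the chromosome 14 paralog (r = 0.994) and Potri.006G121400 for the chromosome 2 paralog (r = 0.996). Each is the highest of 24991 tested genes less the gene itself, and with 6 points between 48 and 101 genes had an r above 0.95 with each member. The files give no names for these 4 identifiers.

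Each of these was picked by its r over the same 6 libraries, so a like pattern over plants follows from the choice. Potri.010G027500, picked for the chromosome 14 paralog, had 69.8, 52.3 and 77.8 CPM in CTRL 1, 2 and 3 and 45.0, 67.3 and 39.3 CPM in RNAi 1, 2 and 3. Like the paralog it was low in RNAi 1 and RNAi 3 and at the wild-type level in RNAi 2, and its log2 fold change was -0.40 ± 0.23 (SE, adjusted p = 0.801 in edgeR). Potri.006G121400 had 42.2, 34.0 and 41.6 CPM in CTRL 1, 2 and 3 and 34.8, 34.0 and 28.1 CPM in RNAi 1, 2 and 3. As for the chromosome 2 paralog, CTRL 1 and CTRL 3 were the highest libraries and RNAi 3 was the lowest. Its log2 fold change was -0.28 ± 0.14 (SE, adjusted p = 0.801 in edgeR).

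Tested genes next to the 4 had fitted values on both sides of 0, though 4 of the 5 beside ARK1 were below 0. Of the 5 listed genes on either side of each in identifier order, 5 of 10 were tested around ARK1 and 9 of 10 around each of the other three. Their median log2 fold change was -0.07 around ARK1, -0.10 around ARK2, 0.05 around the chromosome 14 paralog and 0.00 around the chromosome 2 paralog. Around the chromosome 2 paralog the values ran from -0.27 to 0.58, with 4 genes lower and 5 higher, all above the -0.70 of WOX4 itself. Of the tested neighbours of all 4 genes, edgeR called 0 after adjustment, and 1, beside ARK2, had an unadjusted p under 0.05. ARK2 and the chromosome 2 paralog lie on the same chromosome with 81 listed genes between them.

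**Figure D4:**
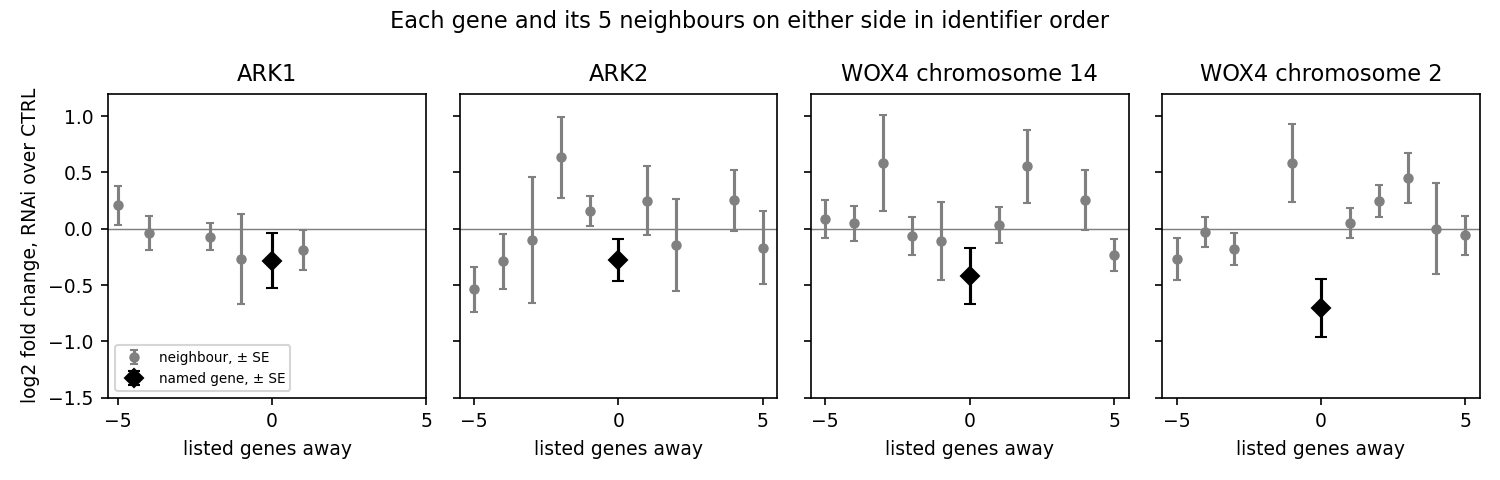
Log2 fold change, RNAi over CTRL, with its SE, of each gene (black, at 0 on the horizontal axis) and of the tested genes among the 5 listed on either side (grey), in identifier order. Neighbours scatter around 0 in all 4 panels, with medians between -0.10 and 0.05.

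Counts on the strand opposite to the genes were few, and whether they come from transcription of that strand was not tested. Over all 6 libraries the opposite strand held 1 count for ARK1, 21 for ARK2, 28 for the chromosome 14 paralog and 3 for the chromosome 2 paralog, or 0.0299%, 0.338%, 0.993% and 0.241% of the stranded counts of each. All 4 of these summed shares lay below the 1.59% to 1.82% that the opposite strand held over all genes of a library. In RNAi 2 taken singly, the chromosome 14 paralog held 1.67%, against 1.63% over all genes of that library. For the chromosome 14 paralog the opposite-strand counts were 6, 1 and 5 in CTRL 1, 2 and 3 and 5, 10 and 1 in RNAi 1, 2 and 3, which overlap. The unstranded count equalled the sum of both strands for each of the 4 genes in every library, so no read of theirs became ambiguous when strand was ignored.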

How the data were processed

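Shoot apex RNA was sequenced as polyA-selected, paired-end, stranded libraries, per the labels' protocols. Per the file headers, each deposited file holds raw gene counts in an unstranded, a forward and a reverse column. STAR is named in the submitters' processing notes, and no STAR version, genome build or annotation is given in the sources used here. The reverse column was used, where this kit places sense reads. Summary lines that name no gene held between 11.7% and 13.1% of the reads and were left out. Multimapping reads, where reads shared by near-identical paralogs would fall, made up 3.43% to 3.88%.

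RNAi was compared with CTRL over all genes with edgeR 4.0.16 in R 4.3.3 (quasi-likelihood F test, robust, two-sided, TMM factors, filterByExpr, group as the only term). Each standard error is |log2 fold change| over √F, and 95% intervals use the t quantile. Log2 CPM took a prior count of 2 and ratios a pseudocount of 0.5. Alternatives included DESeq2 1.42.0 and limma 3.58.1. The scripts were tested on simulated data. The labels call the 3 plants of a group biological replicates, and each of the 15 library pairs differed beyond counting noise (chi-square per degree of freedom 7.25 or more). The rule for the members used no measured value, but members and lists were chosen with earlier results of these data known. Named genes were the 4 members, the tested gene most correlated with each, and the neighbours as counts and ranges. Lists of other KNOX, WOX, CLE and hormone genes, tissue markers and sequences were not analysed here, because no annotation was used.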

Additional observations from a re-analysis of the deposited data

How the results depend on the processing

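Over 16 alternatives each, all 4 genes kept a log2 fold change below 0 and stayed above the adjusted threshold. The value of ARK1 lay between -0.51 and -0.08, that of ARK2 between -0.38 and -0.08, that of the chromosome 14 paralog between -0.74 and -0.25 and that of the chromosome 2 paralog between -0.89 and -0.49, with lowest adjusted p of 0.676, 0.693, 0.749 and 0.610. With the replicate number as a block the values were -0.29, -0.26, -0.46 and -0.70. Over all genes, the deviations of same-numbered plants from their group means had correlations of 0.24, -0.02 and -0.03. With 3 plants a group, these values cannot settle whether the numbers pair the plants.

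The count of 1 called gene over the whole table was 38 in DESeq2, 61 in edgeR's likelihood ratio test and 2 in limma-voom. It was 0 with library size only, with at least 1 CPM in 3 libraries and with the replicate block, and between 0 and 7 with 1 library left out; the cause was not tested. None of these calls was one of the 4 genes.

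The change in the ARK1 to ARK2 ratio lay between -0.133 and 0.182 (log2) over the fits that leave out 1 library, and its sign turned without CTRL 1 or RNAi 3. Those of the WOX4 paralogs and of WOX4 to ARK kept their sign, between 0.0939 (without RNAi 2) and 0.472 (without RNAi 1) and between -0.550 (without RNAi 2) and -0.104 (without RNAi 1). The correlation of ARK2 with the chromosome 14 paralog was -0.0813 on deviations from group means, and the other 5 stayed positive. Beyond the values of r without 2 libraries given above, correlations were not recomputed with single libraries left out. Alternatives for gene lists were not run. Counting error puts the exact 95% upper limit of a count of these genes between 5.10% and 18.7% above it. The spread between plants was above counting error for all 4 genes, with a chi-square per degree of freedom of 13.0 or more within each group.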
